A study of Mus musculus with 36 samples.

Results

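The genes described here were 35 antioxidant and NRF2 pathway genes, taken by symbol from a fixed list of redox regulators, thiol and glutathione enzymes, peroxidases, superoxide dismutases and repair enzymes. All 35 were found among the 57126 gene identifiers of the primordial germ cell (PGC) tables and among the 56262 of the gonad tables. The study exposed mouse fetuses to intrauterine hyperglycemia (IUHG): dams were given streptozotocin (STZ), which destroys pancreatic beta cells, on embryonic day 3.5 at a dose of 120 mg/kg, and counted as IUHG when their blood glucose exceeded 14 mM on day 6.5. Control dams made up the other arm, and every sample was labelled wild type. The 36 RNA-seq libraries formed 12 groups of 3. Whole female gonads of embryonic stage E13.5 (E13.5F) gave 1 control and 1 IUHG group, and PGCs gave control and IUHG groups at E12.5, at E13.5 in females and males (E13.5F and E13.5M) and at E16.5 in females and males (E16.5F and E16.5M). No sex is given for the E12.5 PGCs. According to the study's methods, PGCs were sorted by the fluorescence of an Oct4-EGFP transgene, so that the germ cell sample was what that gate let through, and each library pooled several fetuses. The libraries of a group are named as biological replicates without reference to litters, so the p-values measure the spread between these libraries.

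NRF2, the product of *Nfe2l2*, is a transcription factor that binds antioxidant response elements, and KEAP1 holds it in the cytoplasm and marks it for degradation until oxidants or electrophiles modify KEAP1. Its known targets include enzymes that make glutathione (*Gclc*, *Gclm*), reduce thioredoxin (*Txnrd1*), and detoxify quinones and haem (*Nqo1*, *Hmox1*). Hydrogen peroxide made from superoxide by superoxide dismutases is removed by catalase, by peroxiredoxins that use thioredoxin and by glutathione peroxidases. NRF2 is regulated mostly at the protein level, which RNA-seq does not measure.

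Levels are in TPM (transcript abundance relative to the library's total) as deposited. Aligned bases ranged from 3.25 to 8.32 Gb per PGC library and from 3.89 to 4.95 Gb per gonad library, and 13146 to 20126 genes were at 1 TPM or above in PGCs against 17395 to 17650 in gonads. None of the 5 germ cell markers had a mean under 1 TPM in any PGC group, but *Dppa3*, one of them, was low in E16.5F PGCs after IUHG, as given below. Markers of other cell types differed in some groups, and part of these differences is given beside the results. IUHG library 3 of E13.5F PGCs stood apart from its group, with 16531 genes at 1 TPM or above against 15289 and 14524 in IUHG 1 and 2. Control library 1 of the gonads also stood apart, with Y-linked transcripts summing to 51.3 TPM where the other 5 gonad libraries had none. Its Sertoli markers summed to 230 TPM, against 24.2 to 34.2 TPM in those 5, and its pregranulosa markers to 114 TPM, against 173 to 193 TPM. In bulk samples, fewer cells of a type and less RNA per cell cannot be told apart. Differences are on the log2(TPM + 1) scale, which understates changes of low genes. A gene was called in PGCs when the limma p, adjusted over all genes tested, was under 0.01 with a difference beyond 1 log2 unit, and in gonads when it was under 0.05 with a difference of at least 1.

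Control PGCs differed widely in which antioxidant genes were abundant. *Gpx1*, a glutathione peroxidase of cytosol and mitochondria, had the largest span of control means among the members measured above 1 TPM in every PGC group, 48.0-fold, from 48.4 TPM at E16.5F to 2323 TPM at E12.5. *Prdx1*, a cytosolic peroxiredoxin, had a span of 1.58-fold, from 908 TPM at E13.5M to 1432 TPM at E16.5F. *Park7*, a redox-sensitive chaperone, was above 1000 TPM in all 5 control groups, and *Sod1*, the cytosolic superoxide dismutase, likewise. *Slc7a11*, the cystine importer and a known NRF2 target, stayed under 1 TPM in every PGC group and was tested in gonads only, where its means were 1.11 TPM in controls and 1.48 TPM after IUHG.

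**Figure D1:**
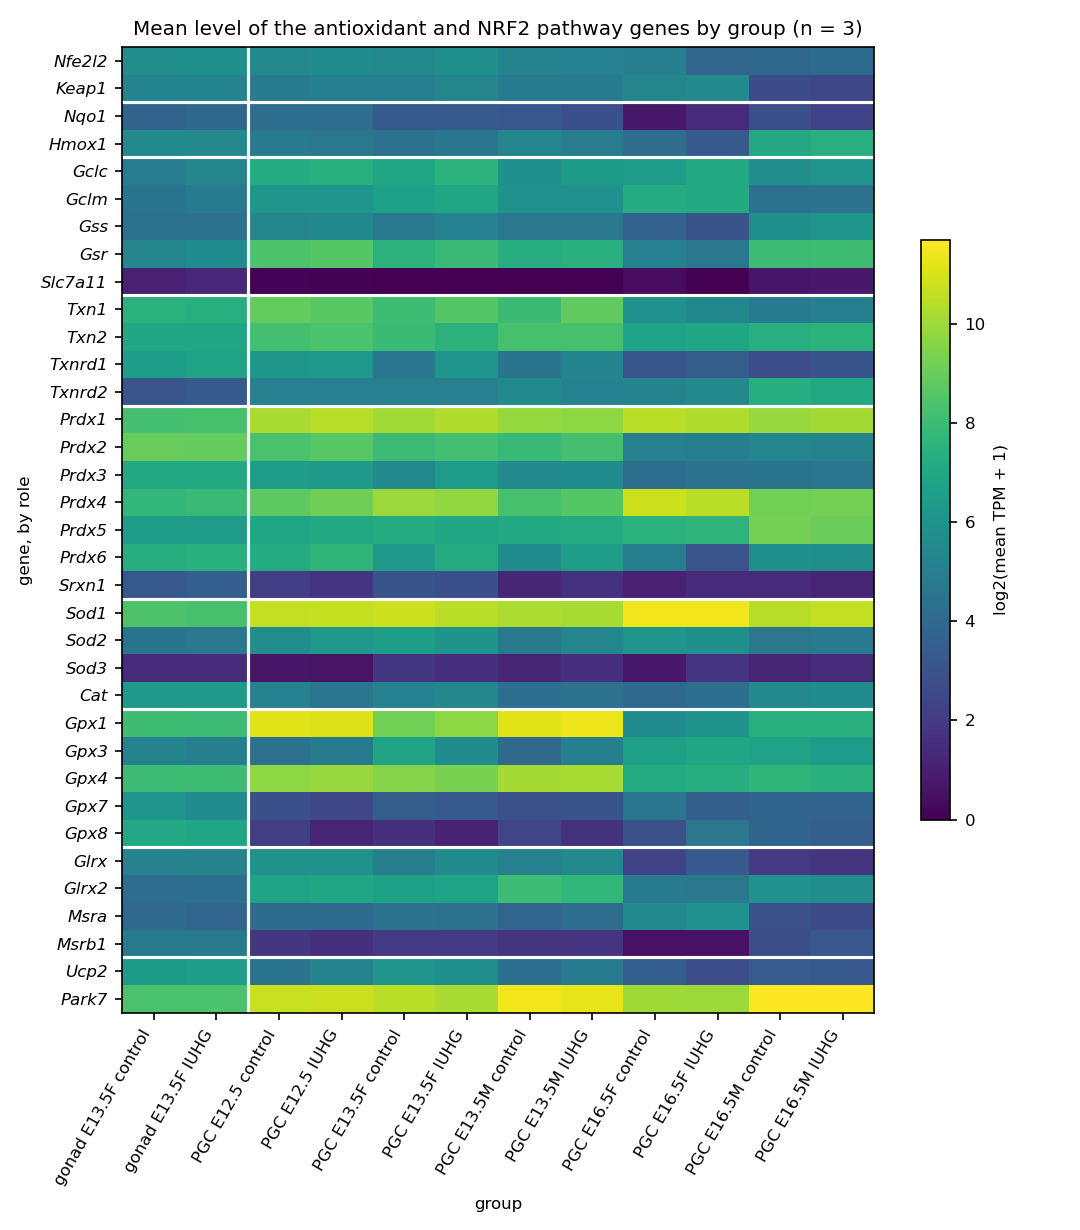
Mean level of each of the 35 genes (rows, grouped by role, white lines between roles) in each of the 12 groups (columns), as log2(mean TPM + 1) of 3 libraries on the colour scale. *Gpx1*, *Gpx4* and *Prdx2* are bright at E12.5 and E13.5 and darker in both sexes at E16.5, while *Slc7a11* is dark in every PGC group and *Park7* bright in all.

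Among controls, 34 of the 35 genes were tested with all 15 control PGC libraries in 1 fit. Between E13.5F and E12.5, 7 of 34 were called (20.6%, against 16.8% of the 22777 genes tested), 4 higher and 3 lower at E13.5F (background 12.3% higher and 4.54% lower). Between E13.5M and E12.5, 6 were called (17.6%, background 9.32%), 1 higher and 5 lower (background 4.99% and 4.33%). The later step held more calls. From E13.5F to E16.5F, 21 were called (61.8%, background 26.7%), of which 3 were higher and 18 lower (background 17.6% and 9.08%). From E13.5M to E16.5M, 19 were called (55.9%, background 45.3%), 8 higher and 11 lower (background 34.2% and 11.2%). Between the sexes, 8 genes were called at E13.5 (background 19.9%), 6 higher and 2 lower in females (background 13.8% and 6.14%), and 19 at E16.5 (background 53%), 8 higher and 11 lower in females (background 23.5% and 29.5%). These contrasts share control libraries with each other. No sex is given for the E12.5 PGCs, so in the contrasts with E12.5 stage and sex cannot be told apart. Y-linked transcripts summed to 194 to 212 TPM in E12.5 controls, 151 to 183 TPM at E13.5M and at most 0.0187 TPM at E13.5F.

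The direction of those counts depended in part on the scaling. The median log2 difference over all genes was 0.10 for E13.5F against E12.5, 0.17 for E16.5F against E13.5F, 0.46 for E16.5M against E13.5M and -0.11 for E16.5F against E16.5M. With median-of-ratios scaling in place of TPM, the split of higher to lower calls became 3 to 8 for E13.5F against E12.5, 0 to 18 for E16.5F against E13.5F, 6 to 14 for E16.5M against E13.5M, 5 to 4 between the sexes at E13.5 and 5 to 13 between the sexes at E16.5. In the 80 pairs of a called member and a contrast of controls, none of the 960 values under the alternatives run changed direction. These pairs were selected as called in the same libraries that the alternatives reused. Because a call required a large difference, a reversal was unlikely from the start, and the absence of reversals does not test the directions.

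The regulators came first. *Nfe2l2* (chr2:75505857-75534985, minus strand, in the coordinates of the PGC tables) was at 43.1, 40.0 and 52.1 TPM in the E12.5 control libraries, at 43.3, 45.5 and 44.5 TPM at E13.5F, and at 35.6, 39.6 and 36.1 TPM at E13.5M. At E16.5F it was at 26.7, 36.9 and 28.4 TPM and at E16.5M at 12.3, 14.0 and 15.6 TPM. The E16.5M libraries lay below every other control PGC library, and the 3 earlier groups were close to each other. *Nfe2l2* was called lower at E16.5M than at E13.5M (log2 difference -1.35, limma adjusted p = 2.97e-07) and higher at E16.5F than at E16.5M (1.07, adjusted p = 2.84e-06). The latter difference was 0.85 on FPKM, 0.71 with median-of-ratios scaling, 0.83 with quantile normalization and 0.94 or 0.99 without E16.5F control 2 or E16.5M control 1, which ended the call. No pair among E12.5, E13.5F and E13.5M was called.

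*Keap1* (chr9:21141026-21150657, minus strand) behaved much the same way between the sexes. Its control means were 26.8 TPM at E12.5, 32.0 TPM at E13.5F and 26.4 TPM at E13.5M. At E16.5F the libraries had 34.4, 46.3 and 42.3 TPM, and at E16.5M they had 4.97, 6.58 and 4.42 TPM, with no overlap. *Keap1* was called higher at E16.5F than at E16.5M (2.73, SE 0.14, limma adjusted p = 2.17e-10) and lower at E16.5M than at E13.5M (-2.12, adjusted p = 5.03e-09). In control gonads the means were 53.8 TPM for *Nfe2l2* and 37.3 TPM for *Keap1*, in libraries made and quantified separately.

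The promoters of 29 of the 35 genes were found in the RefSeq table of GRCm38.p6, as 38 promoters. No entry was found for *Prdx6*, *Gclc*, *Sod3*, *Gsr*, *Hmox1* or *Msra*. A core of the antioxidant response element, written TGACNNNGC and searched on both strands of the 250 bases before and 50 after each start, was present in 7 of the 38 (18.4%) and in 12.4% of all 32851 promoters. Taken by gene, 7 of 29 (24.1%) had it, against 14% of 27025 genes. The specific form TGACTCAGC, which is the core with TCA at its open bases, was present in 0.454% of all promoters and, among these, in that of *Prdx1*. The 250 bases upstream of *Nfe2l2* (chr2:75704664-75704913, minus strand), *Prdx1* (chr4:116685349-116685598, plus strand) and *Txnrd1* (chr10:82858956-82859205, plus strand, 1 of 3 promoters of the gene) are shown because they hold the core in the regulator itself, in the member with the narrowest span in control PGCs and in the member with the largest IUHG difference at E13.5F. Capitals mark the match. It lies on the gene's strand in *Nfe2l2* and on the opposite strand in the other two, so that it reads there as the reverse complement. A match describes the letters and was not tested as a binding site.
Nfe2l2: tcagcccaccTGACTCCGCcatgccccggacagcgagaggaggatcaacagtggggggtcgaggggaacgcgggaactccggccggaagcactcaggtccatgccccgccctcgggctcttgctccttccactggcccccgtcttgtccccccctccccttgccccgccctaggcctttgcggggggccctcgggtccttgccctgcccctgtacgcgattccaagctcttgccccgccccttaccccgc
Prdx1: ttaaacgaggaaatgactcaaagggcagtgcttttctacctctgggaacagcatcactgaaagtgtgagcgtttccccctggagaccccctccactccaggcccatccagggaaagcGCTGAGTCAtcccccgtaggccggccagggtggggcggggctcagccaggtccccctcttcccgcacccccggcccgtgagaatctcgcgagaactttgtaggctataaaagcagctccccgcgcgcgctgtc
Txnrd1: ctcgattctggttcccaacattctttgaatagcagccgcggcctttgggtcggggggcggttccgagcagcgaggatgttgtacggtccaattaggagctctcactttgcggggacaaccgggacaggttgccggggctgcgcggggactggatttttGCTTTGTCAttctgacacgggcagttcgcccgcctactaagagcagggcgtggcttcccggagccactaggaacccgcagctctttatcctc
*Gclm*, *Sod1*, *Ucp2* and, downstream of its start, *Srxn1* also held a match.

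Of the classic inducible targets, *Hmox1*, which encodes haem oxygenase, was high in late male germ cells. Its control means were 26.3 TPM at E12.5, 20.0 TPM at E13.5F and 39.2 TPM at E13.5M. In E16.5M it was at 139.2, 133.7 and 122.4 TPM, above every other control PGC library, and at E16.5F at 11.6, 29.5 and 10.9 TPM. It was called higher at E16.5M than at E13.5M (1.72) and lower at E16.5F than at E16.5M (-2.998, SE 0.25, limma adjusted p = 4.42e-08). The 7 red blood cell markers summed to 253 to 578 TPM in the E16.5M control libraries and 5.7 to 37.9 TPM at E16.5F. Their part in the *Hmox1* difference was not tested. *Nqo1*, a quinone reductase, was a low gene in all groups: it went from 17.9 TPM at E12.5 to 8.93 TPM at E13.5F and 8.12 TPM at E13.5M, and to 0.724 TPM at E16.5F and 6.33 TPM at E16.5M.

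Glutathione enzymes diverged between the sexes at E16.5. *Gclm*, the modifier subunit of the enzyme that limits glutathione synthesis, was at 128.3, 173.9 and 154.1 TPM at E16.5F and at 21.3, 17.4 and 19.1 TPM at E16.5M. It was called higher in females (2.91, SE 0.11, limma adjusted p = 6.31e-12). The catalytic subunit *Gclc* had a mean of 86.2 TPM at E16.5F and 52.5 TPM at E16.5M and was not called. *Gsr*, glutathione reductase, ran the other way, at 23.3, 41.7 and 33.0 TPM at E16.5F and 280.8, 246.7 and 249.5 TPM at E16.5M (-2.98, SE 0.15, adjusted p = 1.24e-10). *Gss*, glutathione synthetase, had means of 11.9 TPM at E16.5F and 55.5 TPM at E16.5M and was also called lower in females (-2.19). Before that stage, *Gclc* and *Gsr* were called lower at E13.5M than at E12.5 (-1.30 and -1.16), the latter with -0.95 after quantile normalization.

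Both cytosolic members of the thioredoxin system fell from E13.5 to E16.5 in each sex. *Txn1*, cytosolic thioredoxin, had control means of 490 TPM at E12.5, 268 TPM at E13.5F and 253 TPM at E13.5M, and reached 59.3 TPM at E16.5F and 26.6 TPM at E16.5M. The E16.5M against E13.5M difference was -3.21 (SE 0.13, limma adjusted p = 2.27e-11). *Txnrd1*, cytosolic thioredoxin reductase (chr10:82669785-82733546, plus strand), was called lower at E13.5F and at E13.5M than at E12.5. In each sex it was also called lower at E16.5 than at E13.5. Its E12.5 libraries were at 73.7, 62.2 and 79.7 TPM, against 23.4, 22.5 and 24.3 TPM at E13.5F and 22.5, 22.6 and 20.5 TPM at E13.5M. Its means were 7.87 TPM at E16.5F and 6.05 TPM at E16.5M. Groups of different stage did not overlap, and the differences from E12.5 were -1.57 at E13.5F and -1.67 at E13.5M. The mitochondrial partners differed from each other. *Txn2* means also fell, from 251 TPM at E13.5F to 109 TPM at E16.5F and from 308 TPM at E13.5M to 163 TPM at E16.5M. *Txnrd2* was called higher at E16.5M than at E13.5M (1.71), at 160.4, 147.9 and 156.8 TPM against 45.9, 45.5 and 49.0 TPM.

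Peroxiredoxins, which reduce hydrogen peroxide, were described by all 6 members and by *Srxn1*, the sulfiredoxin that repairs them. *Prdx2* was at 239.4, 269.8 and 276.3 TPM at E13.5F and at 30.6, 35.7 and 34.1 TPM at E16.5F (-2.93, SE 0.09, limma adjusted p = 4.76e-12), and in males its mean went from 246 to 40.6 TPM (-2.58). *Prdx4*, the peroxiredoxin of the endoplasmic reticulum, was the most female-weighted: its mean was 994 TPM at E13.5F against 315 TPM at E13.5M, and 1762 TPM at E16.5F against 589 TPM at E16.5M (1.58, SE 0.07, adjusted p = 5.95e-11). Its call at E13.5F against E12.5 (1.15) was lost with median-of-ratios scaling (0.83). *Prdx5*, found in mitochondria and peroxisomes, was at 144.5, 147.4 and 135.7 TPM at E13.5M and 617.8, 609.3 and 593.9 TPM at E16.5M (2.08, SE 0.07, adjusted p = 3.5e-12), and its female means were 149 and 176 TPM. Mitochondrial *Prdx3* had means of 87.0 TPM at E12.5 and 17.7 and 21.9 TPM at E16.5F and E16.5M. *Prdx6*, the 1-cysteine peroxiredoxin, was called lower at E13.5M than at E12.5 (-1.54), with means of 144 TPM at E12.5, 76.6 TPM at E13.5F, 48.7 TPM at E13.5M, 30.9 TPM at E16.5F and 57.8 TPM at E16.5M. *Srxn1* was low, between 1.13 and 7.21 TPM, and was called higher at E13.5F than at E13.5M (1.75, adjusted p = 0.00172), a call that a pseudocount of 0.1 removed (adjusted p = 0.0467).

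**Figure D2:**
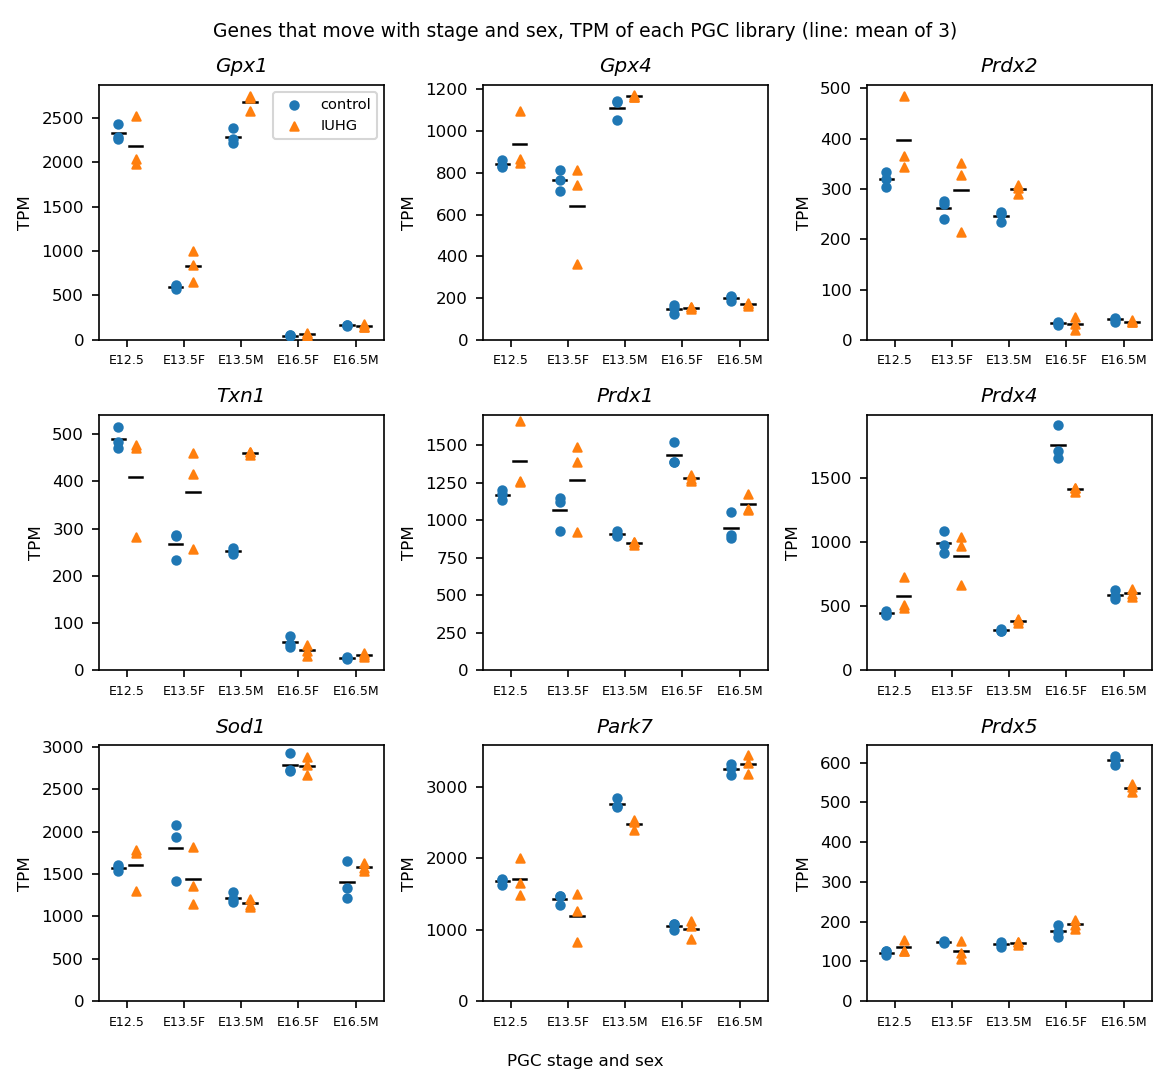
TPM of 9 genes in each PGC library by stage and sex, controls and IUHG side by side, with a line at the mean of 3. *Gpx1*, *Gpx4*, *Prdx2* and *Txn1* are low in both sexes at E16.5, *Prdx4* and *Sod1* are highest at E16.5F, and *Prdx5* and *Park7* are highest at E16.5M.

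Glutathione peroxidases held the largest stage differences. *Gpx1* (chr9:108216253-108217542, plus strand) was at 2284.7, 2428.1 and 2254.6 TPM at E12.5 and at 2209.0, 2264.0 and 2385.3 TPM at E13.5M, while at E13.5F it was at 567.9, 610.5 and 618 TPM. At E16.5 it was at 54.4, 50.4 and 40.3 TPM in females and at 173.3, 154.1 and 167.4 TPM in males. *Gpx1* was called lower at E13.5F than at E12.5 (-1.95) and than at E13.5M (-1.93). Female and male libraries were apart at both stages, and both E16.5 groups lay below every earlier library. The differences were -3.61 for E16.5F against E13.5F and -3.79 for E16.5M against E13.5M (SE 0.09 each, limma adjusted p = 5.4e-13 and 2.11e-13). *Gpx4*, which reduces lipid peroxides and is needed in sperm, went from 764 to 147 TPM in females and from 1112 to 202 TPM in males. *Gpx3*, the secreted plasma form (chr11:54793598-54801203, plus strand), ran against both from E13.5 to E16.5 in males only. In females its control mean was 114 TPM at E13.5F and 98.6 TPM at E16.5F. It was at 16.3, 14.7 and 15.9 TPM at E13.5M and at 115.7, 99.9 and 127.3 TPM at E13.5F (2.79 between the sexes, SE 0.11, adjusted p = 7.1e-11), and at E16.5M it was at 104, 107.1 and 109 TPM, close to the 98.6 TPM mean of E16.5F. *Gpx3* was called higher at E13.5F than at E12.5 (2.46) and at E16.5M than at E13.5M (2.70). *Gpx7* and *Gpx8*, peroxidases of the endoplasmic reticulum, were called higher at E16.5F than at E13.5F (1.17 and 1.26), but with median-of-ratios scaling *Gpx7* had 0.98 and *Gpx8* had 1.07 with an adjusted p of 0.0119. In gonads, *Gpx8* was at 132 TPM and *Gpx7* at 69.4 TPM, against at most 23.3 TPM for either in control PGCs.

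Among superoxide dismutases, *Sod1* had its highest control mean at E16.5F, 2790 TPM, against 1400 TPM at E16.5M. Mitochondrial *Sod2* was higher in females: 84.7, 96.2 and 98.1 TPM at E13.5F against 26.6, 27.2 and 27.8 TPM at E13.5M (1.73, SE 0.08, limma adjusted p = 3.08e-10). The same order held at E16.5, with means of 67.9 and 23.7 TPM. Extracellular *Sod3* was at most at 2.78 TPM, and its call at E13.5F against E12.5 (1.27) was lost on FPKM (0.86) and when any of 4 libraries was left out. *Cat*, catalase, was called in opposite directions in the sexes from E13.5 to E16.5, with control means of 35.4 and 15.3 TPM in females and 18.1 and 43.9 TPM in males.

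The remaining members repair oxidised thiols and methionine or act in mitochondria. *Glrx*, cytosolic glutaredoxin, was called lower at E13.5F than at E12.5 (-1.01), which FPKM took to -0.94, and went from means of 31.4 to 4.06 TPM in females (-2.73) and from 33.2 to 2.84 TPM in males (-3.16). *Glrx2*, the mitochondrial form, was at 256.4, 260.9 and 262.8 TPM at E13.5M and 100.7, 112.9 and 82.3 TPM at E13.5F (-1.40 in females relative to males), and was called higher at E13.5M than at E12.5 (1.28). *Msra*, a methionine sulfoxide reductase, had means of 46.6 TPM at E16.5F and 6.49 TPM at E16.5M (2.68), while *Msrb1*, which acts on the other stereoisomer of the oxidised methionine, had 0.499 and 5.98 TPM (-2.24). The call of *Msra* at E16.5F against E13.5F (1.13) was lost with median-of-ratios scaling (0.94). *Ucp2*, a mitochondrial carrier, was at 68.2, 61.3 and 79.9 TPM at E13.5F, against means of 21.5 TPM at E12.5, 18.5 TPM at E13.5M and 10.1 TPM at E16.5F. It was called higher at E13.5F than at E12.5 (1.65) and than at E13.5M (1.86), and lower at E16.5F than at E13.5F (-2.66).

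Under IUHG, 1 call was made across the 6 comparisons with control, *Gpx3* in E13.5M PGCs. The methods of the study set the threshold for PGCs on p, whereas the call used here adjusts it. With an unadjusted p under 0.01 in limma and a difference beyond 1, a rule added after the data were seen, the genes past it were 2 of 34 at E13.5F (*Txnrd1* higher and *Gpx3* lower, where 6.08% of all genes passed), *Gpx3* alone at E13.5M (4.06%) and 4 of 33 at E16.5F (*Gpx8* higher and *Nfe2l2*, *Prdx6* and *Gpx7* lower, 4.85%), with 0 at E12.5 (1.13%) and 0 at E16.5M (1.12%). Differences of any size with an adjusted p under 0.05, the call included, numbered 1 in gonads, 0 in E12.5 PGCs, 3 at E13.5F, 17 at E13.5M, 5 at E16.5F and 1 at E16.5M, and those at E13.5F, at E16.5F, at E16.5M and in gonads were lost when single libraries were left out.

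**Figure D3:**
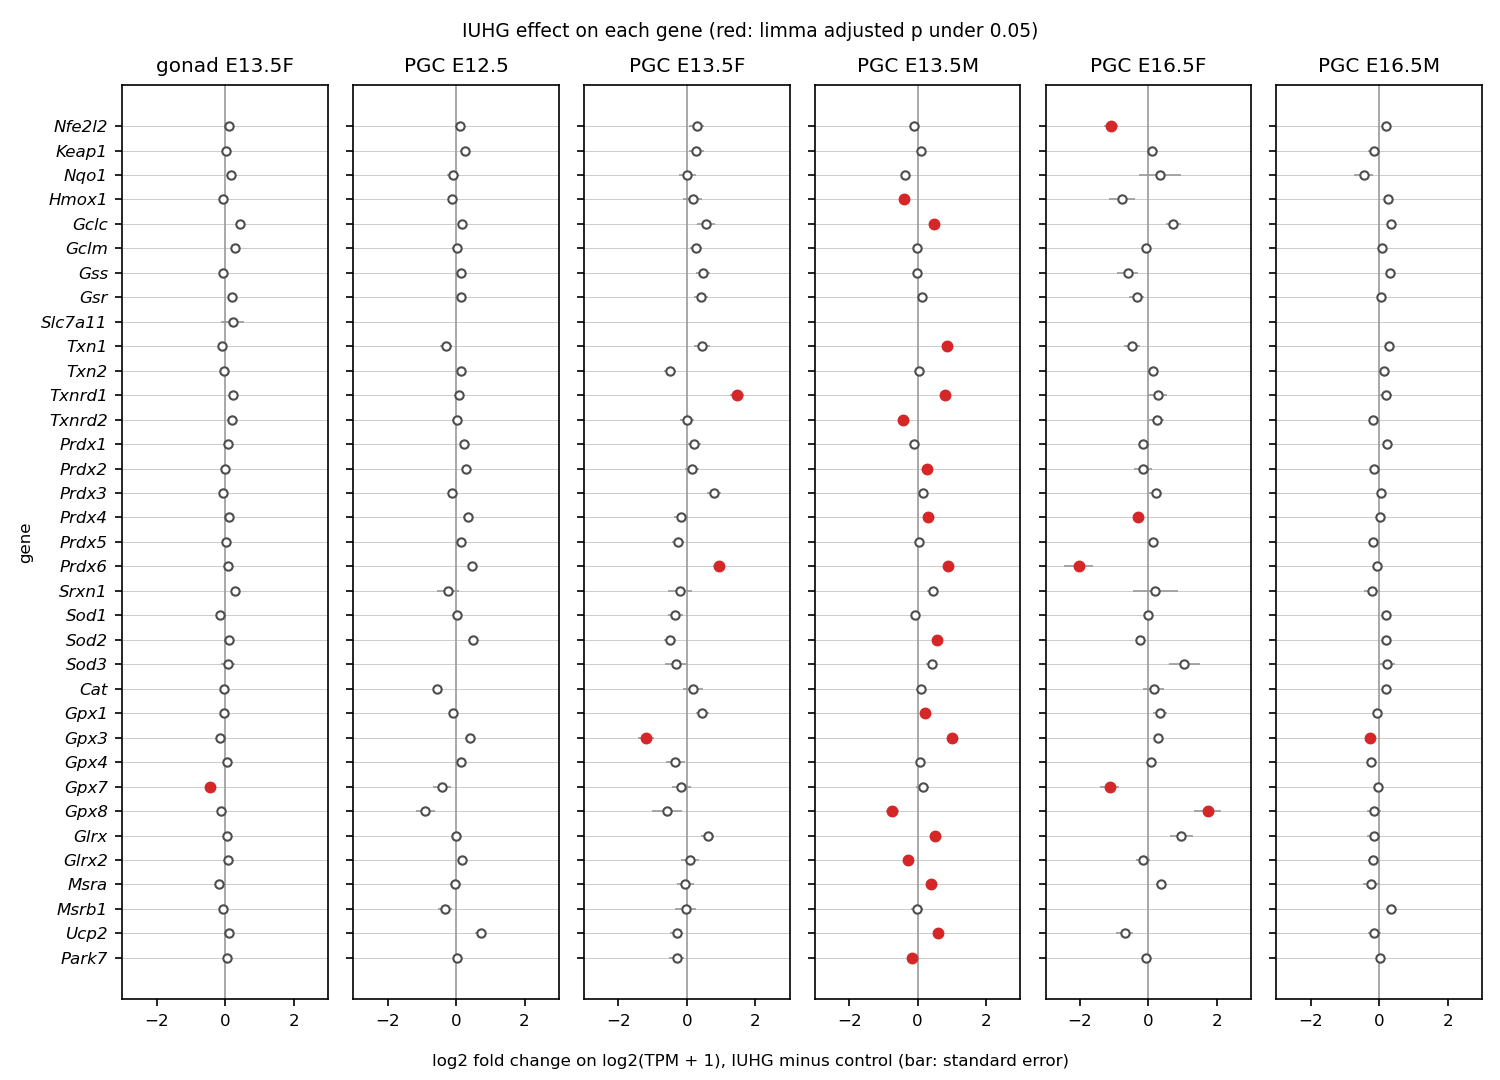
Log2 difference between IUHG and control (x axis, log2(TPM + 1) scale, bars are standard errors) for each gene (y axis) in gonads and the 5 PGC groups, with red points where the limma adjusted p was under 0.05. E13.5M PGCs hold 17 red points, and *Gpx3* is red to the left at E13.5F and to the right at E13.5M.

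E13.5M PGCs had the most differences. Of 34 genes tested, 1 was called (background 3.92%) and 17 (50%) had an adjusted p under 0.05, against 33.3% of the 14473 genes tested. Of the 17, 12 were higher and 5 lower after IUHG (background 15.2% and 18%). The groups did not overlap for 24 of 34 genes, where 47.1% of all genes did not. *Gpx3* was at 16.3, 14.7 and 15.9 TPM in controls and 29.3, 34.0 and 33.7 TPM after IUHG, every IUHG library being above every control library. It rose by 1.00 (SE 0.08, limma adjusted p = 3.18e-05). The size sat at the threshold, so that leaving out control 2 (0.96), IUHG 2 (0.96) or IUHG 3 (0.97), or using FPKM (0.98), ended the call with an adjusted p that stayed under 0.05.

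Cytosolic *Txn1* and *Txnrd1* and the peroxiredoxin *Prdx6* were higher in the same comparison, whereas mitochondrial *Txnrd2* was lower (-0.43, limma adjusted p = 0.000766) and *Txn2* had means of 308 and 316 TPM. *Txn1* was at 252, 247.2 and 259.5 TPM in controls and 462.3, 462.6 and 455.2 TPM after IUHG (0.86, SE 0.04, limma adjusted p = 9.74e-07). *Prdx6* (chr1:161067682-161078789, minus strand) was at 47.1, 51.6 and 47.4 TPM against 91.4, 88.4 and 93.9 TPM (0.89, adjusted p = 7.16e-06). For *Txnrd1* the values were 22.5, 22.6 and 20.5 TPM against 38.9, 36.3 and 40.0 TPM (0.78, adjusted p = 5.81e-05). None of these 3 genes had overlapping groups, and the spread within a group was small beside the distance between groups.

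*Sod2* was also higher, at 26.6, 27.2 and 27.8 TPM against 40.8, 42.3 and 39.0 TPM (0.56, limma adjusted p = 0.000195), and *Gclc* at 55.5, 59.4 and 60.3 TPM against 81.2, 81.2 and 83.9 TPM (0.48, adjusted p = 0.000205). *Ucp2* (0.59), *Glrx* (0.51), *Msra* (0.38), *Prdx4* (0.29), *Prdx2* (0.28) and *Gpx1* (0.23) were the other higher genes. Those that were lower were *Gpx8* (-0.74), *Txnrd2*, *Hmox1* (-0.40), *Glrx2* (-0.28) and *Park7* (-0.15). *Hmox1* was at 37.2, 38.9 and 41.5 TPM in controls and 29.5, 26.7 and 32.2 TPM after IUHG. *Nfe2l2* and *Keap1* had adjusted p-values of 0.237 and 0.588, with *Nfe2l2* means of 37.1 and 34.1 TPM and *Keap1* means of 26.4 and 28.2 TPM.

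With all 30 PGC libraries in 1 fit, *Txn1*, *Prdx6*, *Txnrd1*, *Gpx3*, *Sod2* and *Ucp2* kept an adjusted p under 0.05 in E13.5M, and for the others of the 17 it was between 0.0695 and 0.61. Leaving out single libraries took only *Gpx8* (adjusted p up to 0.0534) and *Park7* (up to 0.0574) past 0.05. The summed endothelial markers were 46.7 to 52.3 TPM in controls and 73.1 to 83.5 TPM after IUHG. With 3 of the 4 markers under 1 TPM, nearly all of each sum came from 1 marker. The red blood cell markers were at 76.2 TPM in control 1 and at most 2.3 TPM in the other 5 libraries. Germ cell markers summed to 8421 to 9025 TPM in controls and 7493 to 7784 TPM after IUHG, and Y-linked transcripts to 151 to 183 TPM and 116 to 120 TPM. Sertoli markers went from 10.8 to 11.7 TPM in controls to 7.68 to 9.86 TPM after IUHG. Interstitial markers were low, at 2.69 to 4.34 TPM against 1.4 to 1.86 TPM, and pregranulosa markers rose, at 2.26 to 2.91 TPM against 3.1 to 4.54 TPM. The part of all these markers in the differences, that of *Gpx8* included, was not tested.

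**Figure D4:**
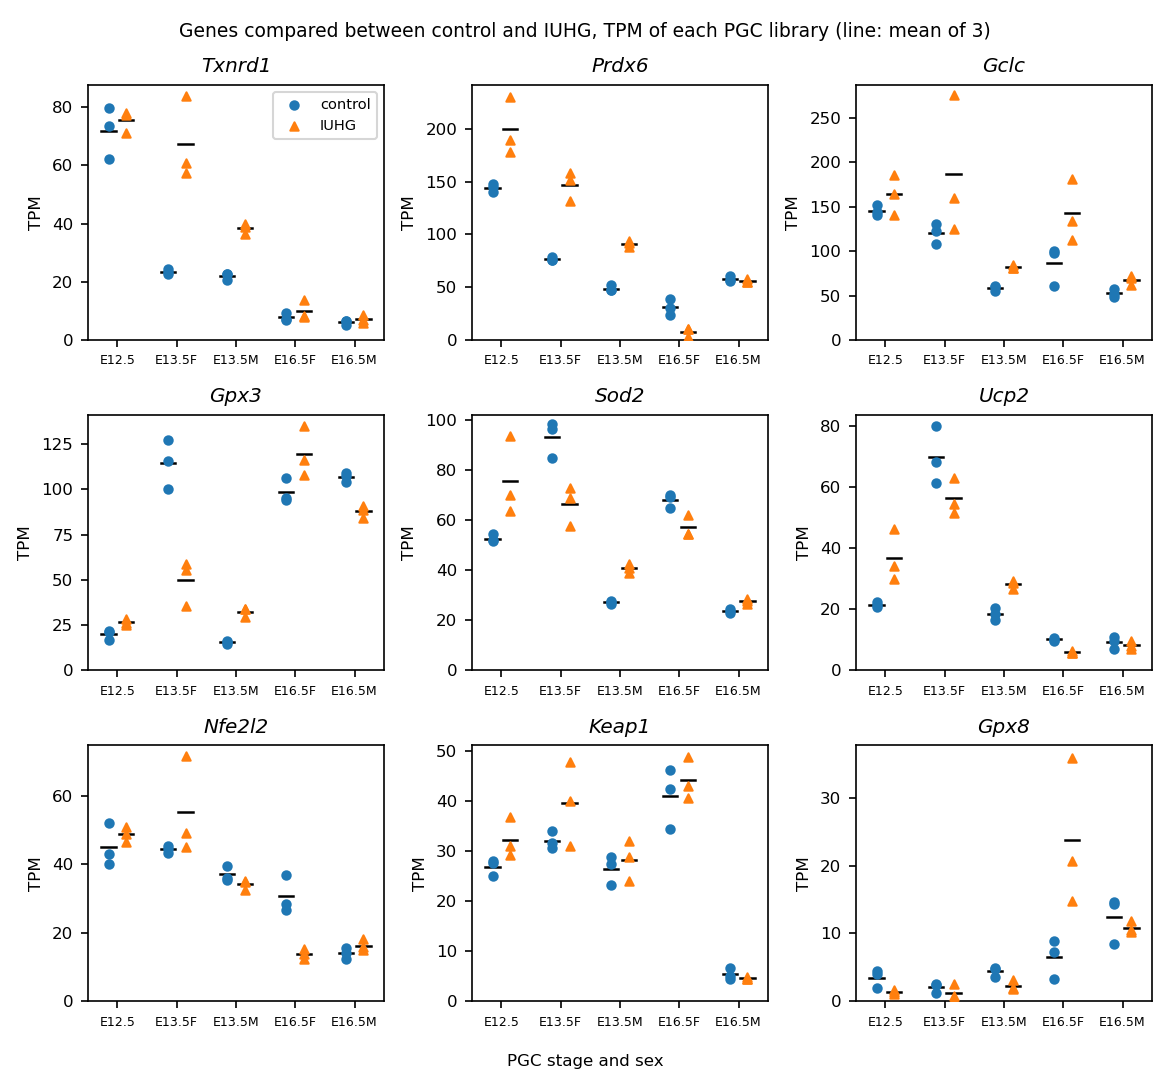
TPM of 9 genes in each PGC library, controls as circles and IUHG as triangles, by stage and sex, with a line at the mean of 3. The E13.5M triangles of *Txnrd1*, *Prdx6*, *Gclc*, *Gpx3*, *Sod2* and *Ucp2* all lie above the E13.5M circles, whereas at E13.5F the triangles of *Gpx3* and *Sod2* lie below the circles.

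In E13.5F PGCs, 34 genes were tested and 0 called (background 0.514%), and 3 (8.82%) had an adjusted p under 0.05, against 3.05% of all genes, whose median difference was 0.14. At an unadjusted p under 0.05 there were 9 (background 23.4%). *Txnrd1* was at 23.4, 22.5 and 24.3 TPM in controls and at 57.2, 60.9 and 83.9 TPM after IUHG (1.47, SE 0.21, limma adjusted p = 0.0106). *Prdx6* was at 75.4, 78.6 and 75.8 TPM against 132.0, 151.5 and 157.8 TPM (0.93, adjusted p = 0.0232). *Gpx3* was lower, at 115.7, 99.9 and 127.3 TPM against 55.6, 58.8 and 35.6 TPM (-1.20, adjusted p = 0.0291). In each of the 3 genes the groups were apart in every library.

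These 3 differences at E13.5F were sensitive to the number of libraries. Leaving out any 1 control took the adjusted p to between 0.0787 and 0.0978 for *Txnrd1*, between 0.138 and 0.172 for *Prdx6* and between 0.124 and 0.172 for *Gpx3*, and leaving out IUHG 2 took that of *Prdx6* to 0.0612 and leaving out IUHG 1 that of *Gpx3* to 0.0541. IUHG 3, the library that stood apart, held the highest *Txnrd1* and the lowest *Gpx3* value. Without it *Txnrd1* was called (1.30, adjusted p = 0.00104), and *Gpx3* had -0.98 with an adjusted p of 0.0032. *Prdx3* had the next lowest p (0.79, adjusted p = 0.0716). *Gclc* was at 122.5, 107.9 and 130 TPM in controls and 124.5, 159.9 and 276.2 TPM after IUHG, so that the groups overlapped and 1 library carried most of the difference. *Nfe2l2* showed the same feature, with 49.2, 45.2 and 71.9 TPM after IUHG against a control mean of 44.4 TPM (adjusted p = 0.445). Endothelial markers summed to 51.2 to 69.8 TPM in controls and 89.3 to 209 TPM after IUHG. With 3 of the 4 under 1 TPM, nearly all of each sum came from 1 marker. Germ cell markers summed to 4965 to 5223 TPM in controls and 5460 to 6206 TPM after IUHG. The part of both marker sets in the E13.5F differences was not tested.

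In E16.5F PGCs the regulator itself was lower. Of 33 genes tested, 0 were called (background 0.736%) and 5 (15.2%) had an adjusted p under 0.05, against 5.64% of all genes. *Nfe2l2* was at 26.7, 36.9 and 28.4 TPM in controls and at 12.3, 15.2 and 13.7 TPM after IUHG, the groups being well apart (-1.10, SE 0.20, limma adjusted p = 0.0175). The adjusted p ranged from 0.021 to 0.0934 when 1 library was left out, above 0.05 without control 2, control 3 or IUHG 3. *Keap1* had means of 41.0 and 44.1 TPM and overlapping groups.

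*Prdx6* was at 39.1, 29.9 and 23.7 TPM in E16.5F controls and at 2.63, 9.87 and 10.2 TPM after IUHG (-2.04, limma adjusted p = 0.0266), and at -1.50 without IUHG 1, its lowest library. *Prdx4* was at 1915, 1714 and 1657 TPM against 1426, 1394 and 1427 TPM (-0.31, adjusted p = 0.029). *Gpx7* was at 22.8, 24.8 and 22.2 TPM against 6.45, 14.6 and 10.9 TPM (-1.12, adjusted p = 0.0477). *Gpx8* was the higher one of the 5, at 8.85, 7.28 and 3.25 TPM against 36.0, 14.8 and 20.8 TPM (1.73, adjusted p = 0.0364). All 4 of these genes had groups that did not overlap, and all 4 exceeded 0.05 when single libraries were left out, up to 0.16 for *Gpx7*.

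Markers of other cells moved in the same comparison. The 4 interstitial markers summed to 8.85 to 22.4 TPM in E16.5F controls and to 35.3 to 45.5 TPM after IUHG, with 2 of the 4 under 1 TPM in controls and 0 after IUHG, and with *Col1a1* at 3.98, 5.38 and 15.0 TPM against 26.4, 34.5 and 29.6 TPM, and *Gpx8* was at 132 TPM in control gonads. Red blood cell markers summed to 5.71, 37.9 and 6.15 TPM in controls and to 8.06, 10.8 and 293 TPM after IUHG, and only IUHG 3 lay above every control. *Dppa3*, a gene of early germ cells, was at 253, 227 and 184 TPM in controls and at 14.5, 2.53 and 9.81 TPM after IUHG. The 5 germ cell markers, *Dppa3* among them, summed to 2955 to 3262 TPM in controls and 2613 to 2968 TPM after IUHG, so that the sums overlapped. The part of these in the differences of *Nfe2l2*, *Prdx6*, *Gpx7* and *Gpx8* was not tested.

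At E12.5, 0 of 33 genes were called in PGCs by limma (background 0.247%) and 0 had an adjusted p under 0.05 (background 1.58%), while 8 had an unadjusted p under 0.05 (background 15.7%). *Cat* had the lowest p, at 35.8, 32.6 and 35.1 TPM in controls and 21.1, 25.1 and 23.6 TPM after IUHG (-0.55, adjusted p = 0.0522), and its groups did not overlap. On other scalings it was between 0.0367 and 0.0393. *Ucp2* was at 21.4, 22.4 and 20.7 TPM against 29.8, 34.2 and 46.3 TPM (0.72, adjusted p = 0.0607), also without overlap. *Prdx6* was at 144.4, 139.7 and 147.6 TPM against 189.8, 178.2 and 230.5 TPM (0.46, adjusted p = 0.0778), and *Sod2*, at means of 52.5 and 75.5 TPM, came next (0.50, adjusted p = 0.129). *Nfe2l2* means were 45.1 and 48.9 TPM. Y-linked transcripts summed to 194 to 212 TPM in the E12.5 controls and to 130 to 154 TPM after IUHG, and the part of the share of male cells in these values was not tested.

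In E16.5M PGCs, 0 of 34 genes were called (background 0.201%), 1 had an adjusted p under 0.05 (background 5.93%) and 12 an unadjusted p under 0.05 (background 23.9%). That gene was *Gpx3*, at 104, 107.1 and 109 TPM in controls and 88.6, 90.6 and 84.4 TPM after IUHG, without overlap (-0.28, limma adjusted p = 0.0412), and leaving out any library took it above 0.05, to between 0.0589 and 0.13. *Gclc* (0.36, adjusted p = 0.0583), *Prdx5* (-0.18, adjusted p = 0.0607) and *Hmox1* (0.26, adjusted p = 0.0663) followed. Red blood cell markers were 253 to 578 TPM in controls and 58 to 283 TPM after IUHG, and their part was not tested.

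In whole E13.5F gonads, 0 of 35 genes were called (background 0.612%), 1 had an adjusted p under 0.05 (background 2.47%) and 7 an unadjusted p under 0.05 (background 19.9%). *Gpx7* was at 76.4, 66.8 and 64.9 TPM in controls and 50.1, 50.4 and 51.8 TPM after IUHG (-0.44, SE 0.07, limma adjusted p = 0.0231), the groups not overlapping. Without control 1, which held the Y-linked transcripts and the high Sertoli sum, it was -0.37 with a limma adjusted p of 0.0286. The adjusted p reached 0.0973 without other libraries. *Gclc* was at 24.9, 31.5 and 31.9 TPM against 40.2, 40.7 and 38.8 TPM (adjusted p = 0.0585). The *Txnrd1* libraries were also apart, at 81.7, 96.3 and 93.8 TPM against 102.6, 107.7 and 109.7 TPM (adjusted p = 0.114), and *Gsr* had control and IUHG means of 41.9 and 48.7 TPM (adjusted p = 0.0981). Control 1 held the lowest control value of both *Gclc* and *Txnrd1*. Their differences were 0.43 and 0.24, and over the alternatives they ranged from 0.32 to 0.49 and from 0.16 to 0.28. Germ cell markers summed to 479 to 555 TPM in controls and 627 to 774 TPM after IUHG, interstitial markers to 989 to 1029 TPM and 760 to 833 TPM, and red blood cell markers to 13711 to 16984 TPM and 10561 to 12023 TPM. Control mean *Gclc* was 29.4 TPM in gonads and 120 TPM in E13.5F PGCs, and control mean *Gpx7* was 69.4 and 9.93 TPM. The part of these shifts in the gonad differences was not tested.

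Differences between IUHG effects were tested as interactions, with an adjusted p under 0.01 as the threshold. Between the sexes at E13.5, 2 of 34 genes passed (background 3.2%): *Gpx3* was -1.20 in females and 1.00 in males, a difference of -2.20 (limma adjusted p = 0.000222), and *Sod2* was -0.49 and 0.56, a difference of -1.05 (adjusted p = 0.00268). *Gpx3* passed under all 18 alternatives (adjusted p up to 0.00167), and *Sod2* missed the threshold when any of 5 male libraries was left out, all but IUHG 3 (adjusted p = 0.0107 to 0.0133). In *Sod2* the female libraries were at 84.7, 96.2 and 98.1 TPM in controls and 57.4, 68.5 and 72.7 TPM after IUHG. In both genes the IUHG libraries lay below every control in females and above every control in males. Between the sexes at E16.5, 1 of 34 passed (background 1.18%), *Nfe2l2* with -1.10 in females and 0.21 in males (difference -1.30, adjusted p = 0.00792). *Nfe2l2* missed the threshold under 13 of 18 alternatives, among them the replicate block (adjusted p = 0.0173), and without any of 10 of the 12 libraries (0.0108 to 0.0263), that is all but E16.5F control 1 and IUHG 2.

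Between stages in females, 2 of 34 genes passed (background 1.93%). *Prdx6* was 0.93 at E13.5F and -2.04 at E16.5F, a difference of -2.97 (limma adjusted p = 0.00231). *Gpx3* was -1.20 and 0.27, a difference of 1.48 (adjusted p = 0.00551). *Prdx6* missed the threshold without the filter on low TPM (adjusted p = 0.0198) and without E16.5F control 1 (0.0108) or control 2 (0.0103). *Gpx3* missed it under 11 of 18 alternatives, with an adjusted p of 0.013 to 0.0224 without any of 7 libraries (the 3 E16.5F controls, E16.5F IUHG 1 and 3 and E13.5F controls 1 and 3). Between stages in males, 4 of 34 passed (background 8.29%), the E13.5M effect being farther from 0 than the E16.5M effect in each: *Gpx3* (-1.28), *Prdx6* (-0.95), *Txn1* (-0.59) and *Hmox1*, which was -0.40 at E13.5M and 0.26 at E16.5M (0.66). *Gpx3*, *Prdx6* and *Hmox1* passed under all 18 alternatives (adjusted p up to 5.88e-05, 0.000147 and 0.00516), while *Txn1* missed the threshold under 12, with an adjusted p of 0.0121 to 0.0189 without any of 10 libraries, that is all but E16.5M control 2 and IUHG 1. The 4 tests share libraries with each other and with the comparisons above, and the median difference over all genes was 0.16 for the sexes at E13.5 and -0.10 for the stages in females.

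A list of 59 other genes of the same pathways, which covered partners of NRF2, NADPH supply, the use of glutathione, detoxification, haem and iron and further thioredoxin and selenoprotein genes, held 5 IUHG calls. In gonads 57 were tested and 0 called (background 0.612%), at E12.5 1 of 52 was called (1.92%, background 0.247%) and at E13.5F 0 of 53 (background 0.514%). At E13.5M 2 of 52 were called (3.85%, background 3.92%), at E16.5F 2 of 54 (3.7%, background 0.736%) and at E16.5M 0 of 58 (background 0.201%). *Ftl1*, the ferritin light chain, which has processed copies that could share reads, was at 5856, 5960 and 5371 TPM in E16.5F controls and 2373, 2900 and 2662 TPM after IUHG, with no overlap, and fell by 1.12 (limma adjusted p = 0.000169). *Gstm1*, a glutathione transferase, fell in the same comparison, from 76.9, 86.6 and 63.9 TPM to 24.8, 30.0 and 40.3 TPM (-1.25, adjusted p = 0.00978).

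In E13.5M PGCs, *Cbr3*, a carbonyl reductase, fell from 34.9, 35.7 and 37.5 TPM to 8.63, 7.49 and 5.03 TPM (-2.23, limma adjusted p = 8.08e-06), and *Msrb2*, a mitochondrial methionine sulfoxide reductase, rose from 2.74, 1.92 and 2.04 TPM to 5.24, 6.34 and 9.09 TPM (1.27, adjusted p = 0.000883). At E12.5, *Mgst2*, a microsomal glutathione transferase, fell from 26.2, 29.3 and 22.8 TPM to 11.6, 10.2 and 7.45 TPM (-1.35, adjusted p = 0.00771). With an adjusted p under 0.05, 8 of the list were higher and 12 lower at E13.5M (38.5% of 52, background 15.2% higher, 18% lower and 33.3% either way), and 4 higher and 6 lower at E16.5M (17.2% of 58, background 3.38%, 2.54% and 5.93%).

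Some members have near-identical copies with which reads could be shared. *Gpx4-ps2*, a processed copy of *Gpx4*, was at means of 101 TPM in control and 104 TPM in IUHG gonads and between 3.0 and 50.6 TPM in PGC groups. How far shared reads alter the level of *Gpx4* was not measured. *Prdx2-ps1* was at most at 3.53 TPM. *Txnrd2* had 2 identifiers in the gonad tables, with control means of 7.60 TPM for the one used and 7.27 TPM for the other.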

How the data were processed

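RNA-seq was analysed in 6 gonad and 30 sorted PGC libraries. Per the study's methods, the authors trimmed reads, aligned gonad reads with HISAT2 and PGC reads with STAR (build mm39), and the deposited tables hold TPM, FPKM and coverage per gene from StringTie. The methods name another build for the gonads than their positions show: 47.5% of matched genes share a start or end with GRCm38.p6. Gene counts were not used here, so the study's DESeq2 test was replaced by limma 3.58.1 (R 4.3.3; two-sided, with trend) on log2(deposited TPM + 1), over genes with a mean of at least 1 TPM in 1 compared group and with Benjamini-Hochberg adjustment over all of them. Deposited FPKM served as an alternative, and deposited coverage divided by FPKM gave aligned bases. The study's threshold on p in PGCs was applied here to the adjusted p, with the unadjusted p as an alternative added after the data were seen. Gonads and PGCs were tested separately.

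The members and lists were chosen with earlier results of these data known. *Nfe2l2* and *Keap1* were named throughout, as were up to 4 called members per direction in each control contrast, called members or, where fewer than 4 were called, those with the lowest p up to 4 in each IUHG comparison, and those that passed an interaction. Of the other pathway genes, those called under IUHG were named. Further members are given by role, chosen after their values were seen. Alternatives were a pseudocount of 0.1, no filter, FPKM, median-of-ratios scaling, quantile normalization, a replicate block, all PGC libraries in 1 fit, and each library left out. The procedure was tested on simulated data. Tables were handled with Python 3.11.15, numpy 2.4.6, pandas 2.3.3 and scipy 1.17.1, and figures with matplotlib 3.10.9.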

Additional observations from a re-analysis of the deposited data

Results flagged for a closer look

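The effect of IUHG differed between groups for these genes by an interaction test in limma (log2 differences, adjusted p over all genes). At E13.5 the effect in females minus that in males was -2.20 for *Gpx3* (adjusted p = 0.000222) and -1.05 for *Sod2* (adjusted p = 0.00268), each lower after IUHG in 3 of 3 female libraries and higher in 3 of 3 male libraries than every control. At E16.5 the effect in females minus that in males was -1.30 for *Nfe2l2* (adjusted p = 0.00792), which was 0.21 in males.

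In females, the effect at E16.5 minus that at E13.5 was -2.97 for *Prdx6* (adjusted p = 0.00231) and 1.48 for *Gpx3* (adjusted p = 0.00551). In males, the effect at E16.5 minus that at E13.5 was -1.28 for *Gpx3* (adjusted p = 5.78e-06), -0.95 for *Prdx6* (adjusted p = 1.75e-05), -0.59 for *Txn1* (adjusted p = 0.00633) and 0.66 for *Hmox1* (adjusted p = 0.00147). Under all 18 alternatives, *Gpx3* between the sexes and *Gpx3*, *Prdx6* and *Hmox1* between stages in males had an adjusted p under 0.01, and *Sod2*, *Nfe2l2*, *Txn1* and both genes between stages in females did not. Groups of 3 libraries were too small to test single libraries as outliers.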

How the results depend on the processing

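Of 1285 alternative values for 99 pairs of gene and comparison, 1193 kept their direction and side of the threshold, 75 lost and 11 gained a call, and 6 reversed. The 6 were all *Keap1* near 0: in gonads -0.0042 with quantile normalization, -0.0240 without IUHG 2 and -0.0150 without control 2 (range over libraries left out -0.0240 to 0.0600), at E13.5M -0.0036 without IUHG 3 and -0.0008 without control 1 (to 0.1990), and at E16.5F -0.0098 without control 1 (to 0.1981). Of the IUHG pairs, only *Gpx3* at E13.5M was called at first, so the others kept their side by staying uncalled. At a limma adjusted p under 0.05, many IUHG pairs changed side. *Gpx7* at E16.5F, for example, was under it in 5 of 13 alternatives.

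The number of members called under IUHG at E13.5F became 1 on FPKM, with median-of-ratios scaling and with quantile normalization, 2 with all PGC libraries in 1 fit, and 3 when the fold threshold was dropped and the adjusted p set at 0.05. At that looser threshold it was 1 in gonads, 17 at E13.5M, 5 at E16.5F and 1 at E16.5M. With an unadjusted p under 0.01 and the fold threshold, chosen after seeing the data, it was 2 at E13.5F and 4 at E16.5F. It was 0 on FPKM at E13.5M and 5 with all PGC libraries in 1 fit at E16.5F. Median-of-ratios scaling gave 11 members between E13.5F and E12.5 controls. The interaction of sex and IUHG at E16.5 gave 0 without the filter on low TPM and 0 with median-of-ratios scaling. That of stage and IUHG gave 0 in females without the filter, and 7 on FPKM and 9 with median-of-ratios scaling in males. Over all genes, IUHG calls at E13.5F numbered 85, but 156 on FPKM, 147 with median-of-ratios scaling and 1358 with all PGC libraries in 1 fit. At E16.5F they numbered 138 against 1659 in 1 fit, and at E13.5M 567 against 319 on FPKM.

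Leaving out 1 library at a time gave 0 to 1 members at E13.5F and at E13.5M, 0 to 0 in the other IUHG comparisons, 5 to 8 for E13.5F against E12.5, 5 to 5 for E13.5M against E12.5, 18 to 21 and 17 to 20 for E16.5 against E13.5 in females and males, 7 to 9 and 17 to 19 between the sexes at E13.5 and E16.5, and for the interactions 1 to 5 and 0 to 1 for sex at E13.5 and E16.5 and 0 to 3 and 3 to 6 for stage in females and males. Over all genes at E13.5F the calls ranged from 1 to 428, the latter without IUHG 3.

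Groups share replicate numbers, but same-numbered libraries did not deviate together (correlations -0.085 to 0.126). With the replicate block, 1 member was called at E13.5F, where 216 genes were called in all, and 0 passed the interaction at E16.5. The block moved no other count of members by over 1.5 times.

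The filter, the scaling and the small groups limit what can be said of genes near a threshold. Coverage per gene was not turned into counting errors here.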

Other observations

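The 59 other pathway genes, of which 58 were tested in control PGCs, also differed with stage and sex. From E13.5M to E16.5M, 21 were called higher and 8 lower (background 34.2% and 11.2% of all genes), and from E13.5F to E16.5F, 7 higher and 11 lower (background 17.6% and 9.08%). At E16.5, 11 were called higher and 23 lower in females than in males (background 23.5% and 29.5%), and at E13.5, 9 higher and 6 lower (background 13.8% and 6.14%). Against E12.5, 8 were higher and 5 lower at E13.5F (background 12.3% and 4.54%), and 2 higher and 2 lower at E13.5M (background 4.99% and 4.33%). These contrasts share control libraries.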
